A study of Homo sapiens with 8 samples.

Results

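MGST3 and 9 other genes of glutathione metabolism were followed in a human lymphoblastoid cell line, a B cell line made to grow without limit by Epstein-Barr virus, around an exposure to hexavalent chromium. The 10 genes are MGST3, MGST2, GSTP1, GSTO1, GSTK1, GSTZ1, GPX1, GPX4, GSR and GSS, out of 23710 gene symbols in the deposited tables, and all 10 passed the filter on low counts. MGST3 was chosen by its measured level at 3 days against control, so its values in that comparison are a description and carry no test. The other 9 were picked for their function, with earlier results of these data known. Poly(A) RNA was sequenced at 4 times with 2 libraries each: before exposure (control), after 24 h in 5 µM chromium, and at 3 and 7 days. The sample labels place these later times post treatment whereas the series text places them after the onset, and which start of the count holds was not settled. All groups come from 1 cell line in standard RPMI medium, no unexposed cells kept for 24 h, 3 days or 7 days were analysed here, and exposure and time in culture cannot be told apart.

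Glutathione is the main low-molecular-weight thiol of cells. Glutathione transferases join it to electrophiles, glutathione peroxidases spend it to reduce peroxides, and glutathione reductase restores it with NADPH. Chromate enters cells through anion carriers and is reduced there by glutathione, ascorbate and cysteine, which makes this pathway a usual place to look after chromium exposure. Several of these genes are known targets of the transcription factor NRF2, which binds antioxidant response elements.

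The libraries held 9478459 to 11110830 reads counted in genes. Replicate 1 at 3 days and at 7 days stood apart: the median of 75 ribosomal protein genes lay 1.46 and 1.42 above the control mean on the log2 CPM scale in them, against -0.14 to 0.29 in the other 6 libraries. Reads counted under no feature made up 39.4% and 36.5% in these 2 libraries and 44.4% to 51.5% in the others. Libraries also formed 4 close pairs across groups: replicate 1 at 3 and 7 days, replicate 2 at 3 and 7 days, control replicate 1 with 24 h replicate 2, and control replicate 2 with 24 h replicate 1. All 13 B cell markers reached 10 CPM (read counts scaled to library size, with the TMM correction for composition), whereas 0 of 10 T and NK cell, 1 of 9 myeloid (ITGAM), 0 of 9 stromal or epithelial and 0 of 5 erythroid markers did. The labels call the replicates biological without naming separate cultures, so p-values measure the spread between these libraries, which may be technical. In such bulk RNA, fewer expressing cells and less RNA per cell cannot be told apart.

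Antioxidant response elements were looked for in promoter windows of 250 bases before and 50 after the transcription start, taken from RefSeq on GRCh38.p14. Windows were found for 7 of the 10 genes: MGST3, GPX1, GPX4, GSTK1, GSTO1, GSTP1 and GSTZ1. These 7 genes have 9 windows, since GPX4 has several. The core motif TGACNNNGC, searched on both strands, was in 2 of the 9 windows, 1 of GSTP1 and 1 of GSTO1, and in 13.3% of 35116 windows of all genes. The stretches around these matches are shown because the motif is the known NRF2 element, and capitals mark it. The GSTP1 match starts 66 bases before the transcription start (chr11:67583731-67583769, plus strand), and those of GSTO1 start 226 and 161 bases before it (chr10:104254651-104254689 and chr10:104254716-104254754, plus strand).
GSTP1: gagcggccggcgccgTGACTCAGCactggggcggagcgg
GSTO1 distal: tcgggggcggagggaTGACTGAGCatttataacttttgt
GSTO1 proximal: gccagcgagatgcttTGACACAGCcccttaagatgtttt
These letters are not in the MGST3 window, and a match or its absence says nothing here about binding.

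MGST3 encodes a microsomal glutathione transferase of the MAPEG family, an integral membrane enzyme that can also reduce lipid hydroperoxides and make leukotriene C4. Its level was 12.04 and 9.83 CPM in the control libraries, 16.1 and 13.0 at 24 h, 26.0 and 25.8 at 3 days, and 22.6 and 21.4 at 7 days. No 2 of the 4 groups overlapped, and the order from low to high was control, 24 h, 7 days and 3 days. How many of all tested genes separate the 4 groups was not counted. The group means were 10.9 ± 1.56, 14.6 ± 2.17, 25.9 ± 0.15 and 22.02 ± 0.87 CPM for control, 24 h, 3 days and 7 days (SD, n = 2 each). With 2 libraries a group these SDs are themselves uncertain, and the nearest control and 24 h libraries lay as close as 12.04 and 13.0 CPM. The 2 libraries that stood apart did not differ from their partners here: replicate 1 exceeded replicate 2 by 0.01 at 3 days and by 0.08 at 7 days on the log2 CPM scale.

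**Figure D1:**
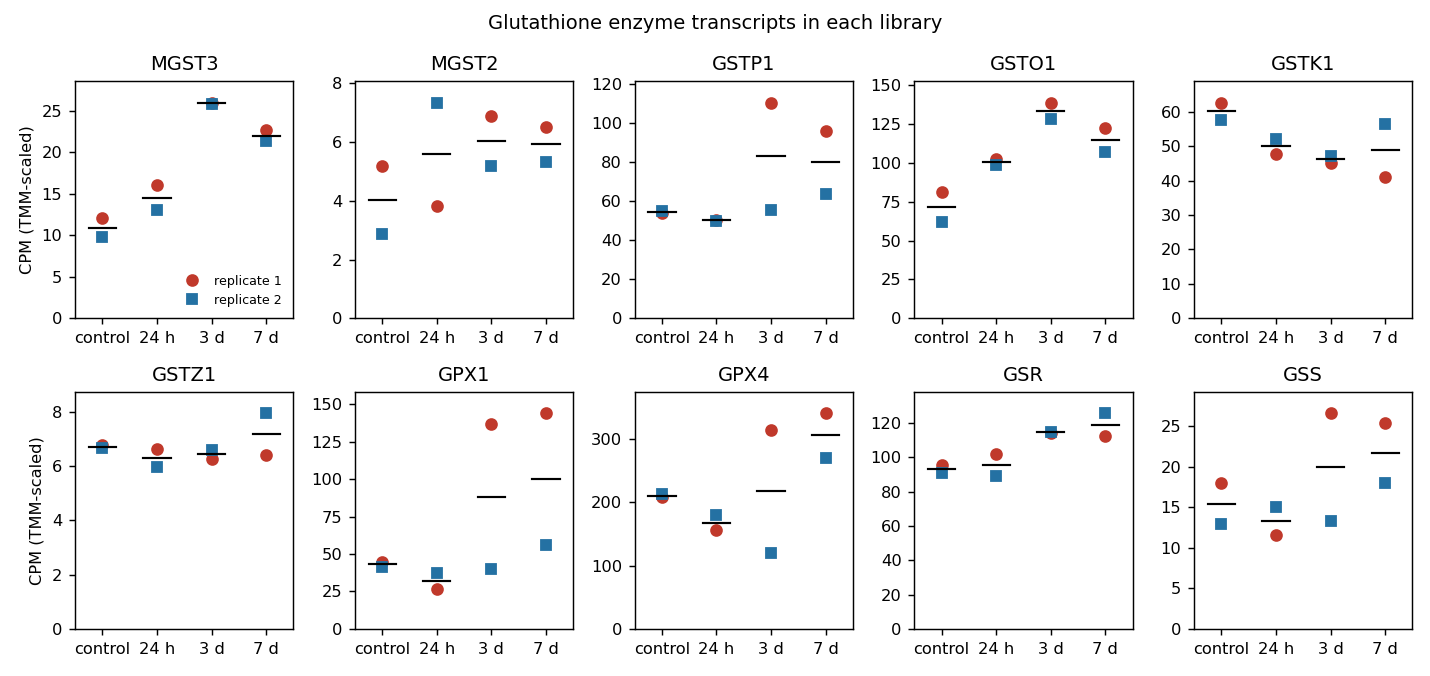
CPM (TMM-scaled read counts) of the 10 genes in each of the 8 libraries, by group, with replicate 1 as circles, replicate 2 as squares and the group mean as a line. MGST3, GSTO1 and GSR show both 3 and 7 day replicates above the control libraries, whereas GPX1, GSTP1 and GSS are high mainly in replicate 1, with GPX1 at 136.8 and 39.9 CPM in the 2 libraries at 3 days.

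The fitted log2 fold change of MGST3 was 1.24 ± 0.24 (SE) at 3 days against control, a description since this value chose the gene. It was 1.01 ± 0.24 at 7 days and 0.41 ± 0.24 at 24 h, with the same control libraries. Without replicate 1 at 3 and 7 days, the values at 3 and 7 days were 1.24 and 0.97. The comparison of 7 days with 24 h takes its fold change from none of the libraries that chose MGST3. Its SE and p-value do draw on them, since all 8 libraries share an estimate of the spread. The fold change is not independent of them either. Each 7 day library closely resembled a 3 day library, and each 24 h library a control library. In this comparison MGST3 gave a log2 fold change of 0.60 ± 0.24 with both 7 day libraries above both 24 h libraries. It did not pass (edgeR, unadjusted p = 0.0377, adjusted p = 0.736). At 7 days against 24 h, edgeR called 0 of 12536 genes, or 0%, and 5.96% had an unadjusted p under 0.05. In that comparison DESeq2 called 22 genes and limma-voom 0, none of them among the 10 genes.

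MGST2, the closest relative of MGST3 among the 10 and likewise able to make leukotriene C4, was low, with 28 to 79 reads in a library. It stood at 5.18 and 2.87 CPM in control, 3.82 and 7.35 at 24 h, 6.89 and 5.18 at 3 days, and 6.52 and 5.33 at 7 days. Its control and 24 h replicates lay 0.81 and -0.91 apart (replicate 1 minus 2, log2 CPM), and it gave a log2 fold change of 0.57 ± 0.45 at 3 days against control (edgeR, adjusted p = 0.843), or 0.36 without replicate 1 at 3 and 7 days. A pair of relatives outside the 10 was named after their values were seen. MGST1, another MAPEG transferase, averaged 118 CPM at 3 days and 95.5 in control, and LTC4S, the leukotriene C4 synthase of myeloid cells, had 1 read in 1 of the 8 libraries and 0 in the others. Per kilobase of transcript, the mean level over the 8 libraries was 18.1 CPM for MGST3 and 4.22 for MGST2.

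GSTO1, an omega class transferase with thioltransferase and dehydroascorbate reductase activity, came closest to MGST3. It stood at 81.4 and 61.7 CPM in control, 102 and 98.6 at 24 h, 139 and 128 at 3 days, and 123 and 107 at 7 days. Control lay lowest and 3 days highest, with no overlap between any 2 groups, a pattern not counted over all tested genes. The log2 fold change was 0.49 ± 0.21 at 24 h (unadjusted p = 0.0515), 0.90 ± 0.22 at 3 days (unadjusted p = 0.00301) and 0.68 ± 0.21 at 7 days (unadjusted p = 0.013), and none passed after adjustment (edgeR, adjusted p = 1, 0.843 and 0.851). Without replicate 1 at 3 and 7 days the last 2 values were 0.85 and 0.58.

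GSR, glutathione reductase, had nearly equal replicates at 3 days. Its libraries held 114 and 115 CPM at 3 days and 112 and 126 at 7 days, against 95.8 and 91.1 in control, while 24 h (102 and 89.1) spanned the controls. The log2 fold changes were 0.29 ± 0.19 at 3 days (edgeR, adjusted p = 0.843) and 0.35 ± 0.19 at 7 days (adjusted p = 0.851), and 0.31 and 0.43 without replicate 1 at these times. Of the 9 genes other than MGST3, 3 (GSTO1, GSTP1 and GSR) had all 4 libraries of 3 and 7 days above all 4 of control and 24 h, as did 5.93% of all tested genes.

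GPX1, the cytosolic selenoenzyme that reduces hydrogen peroxide, followed another pattern. It stood at 44.7 and 41.6 CPM in control and 26.6 and 37.2 at 24 h. At 3 days it was at 136.8 in replicate 1 and 39.9 in replicate 2, and at 7 days at 144 and 55.9. Replicate 1 was thus far above every other library, replicate 2 at 3 days lay below both controls, and both 24 h libraries lay below both controls. The log2 fold change was 1.03 ± 0.59 at 3 days (edgeR, adjusted p = 0.843) and 1.21 ± 0.60 at 7 days (adjusted p = 0.851). Without replicate 1 at 3 and 7 days the values were -0.10 and 0.38, so the direction at 3 days turned.

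GPX4, the selenoenzyme that reduces lipid hydroperoxides in membranes and holds back ferroptosis, had the highest level per transcript length of the 10 genes, at 190 CPM per kilobase over the 8 libraries. It stood at 209 and 213 CPM in control, 156 and 180 at 24 h, 315 and 120.0 at 3 days, and 341 and 271 at 7 days. The 3 day libraries therefore held its lowest value and one of its highest, on either side of all control and 24 h libraries. Both 7 day libraries lay above, and both 24 h libraries below, both controls. Its log2 fold change was 0.05 ± 0.40 at 3 days (edgeR, adjusted p = 0.989) and 0.54 ± 0.40 at 7 days (adjusted p = 0.851). They were -0.80 and 0.36 without replicate 1 at these times.

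GSTP1, the pi class transferase of the cytosol, resembled GPX1. Its level was 53.9 and 55.1 CPM in control, 50.4 and 49.7 at 24 h, 110.3 and 55.1 at 3 days, and 95.9 and 63.7 at 7 days. Replicate 2 at 3 days was barely above the controls, and the log2 fold changes of 0.60 ± 0.34 at 3 days and 0.55 ± 0.34 at 7 days (edgeR, adjusted p = 0.843 and 0.851) were 0.03 and 0.23 without replicate 1 at these times. GPX1 and GSTP1 have processed pseudogenes in GENCODE (GPX1P1, GPX1P2 and GSTP1P1) that are no entries of the count tables, so reads could be split or lost between copies and both levels are uncertain.

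GSS, glutathione synthetase, which completes the making of glutathione, stood at 18.0 and 12.9 CPM in control, 11.6 and 15.1 at 24 h, 26.6 and 13.4 at 3 days, and 25.4 and 18.0 at 7 days. Here too replicate 1 at 3 and 7 days gave the 2 highest values and replicate 2 at 3 days lay among the controls. The log2 fold change was 0.37 ± 0.38 at 3 days and 0.49 ± 0.38 at 7 days (edgeR, adjusted p = 0.858 and 0.851), or -0.20 and 0.22 without replicate 1 at these times. For GPX1, GPX4, GSTP1 and GSS replicate 1 exceeded replicate 2 by 0.98 to 1.77 at 3 days and by 0.33 to 1.36 at 7 days (log2 CPM), in the libraries where the ribosomal protein median was also 1.46 and 1.42. The part of that library difference in the levels of these 4 genes was not tested.

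**Figure D2:**
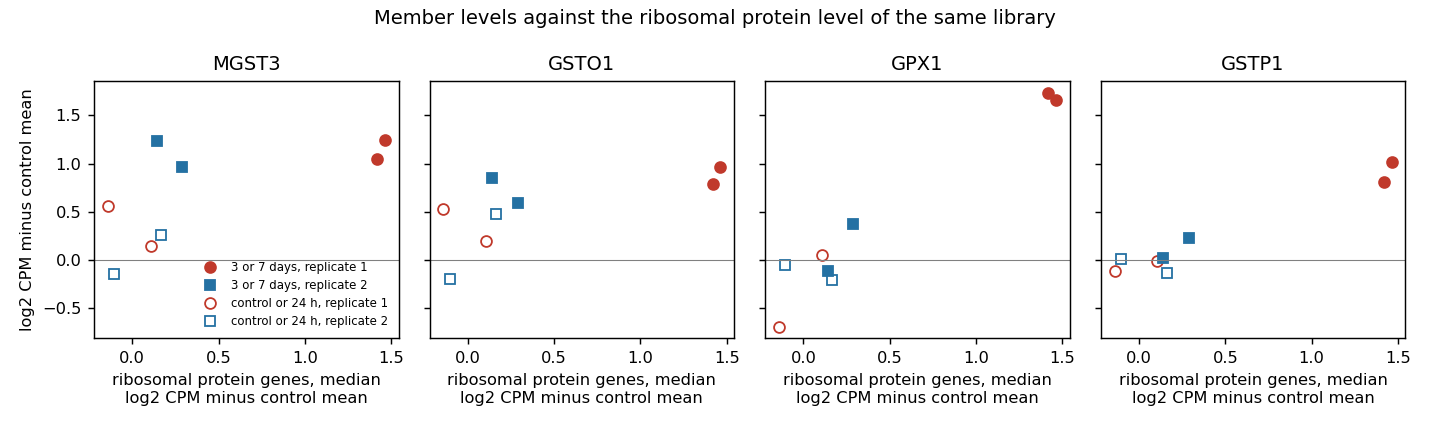
Log2 CPM minus the control mean for MGST3, GSTO1, GPX1 and GSTP1 (vertical axis) against the median of 75 ribosomal protein genes in the same library (horizontal axis), with the 3 and 7 day libraries filled and the control and 24 h libraries hollow. In both filled squares MGST3 is at 1.23 and 0.96 with a low ribosomal median, whereas GPX1 is at -0.11 and 0.37 there and at 1.66 and 1.73 in the filled circles.

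GSTK1, the kappa class transferase of mitochondria and peroxisomes, was the one gene of the 10 with a negative fold change at all 3 times. It stood at 47.8 and 52.0 CPM at 24 h, 45.0 and 47.2 at 3 days and 41.1 and 56.5 at 7 days, each library below both controls (62.6 and 57.6). The log2 fold change was -0.27 ± 0.22, -0.38 ± 0.22 and -0.30 ± 0.22 at 24 h, 3 days and 7 days (edgeR, adjusted p = 1, 0.843 and 0.851). The values at 3 and 7 days were -0.34 and -0.088 without replicate 1 at these times. GSTZ1, the zeta class enzyme that acts as maleylacetoacetate isomerase in tyrosine breakdown, was low at 58 to 79 reads and nearly level, from 5.95 to 7.94 CPM over the 8 libraries. Its log2 fold changes were -0.09 ± 0.29, -0.06 ± 0.29 and 0.10 ± 0.29 at 24 h, 3 days and 7 days (edgeR, adjusted p from 0.941 to 1).

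**Figure D3:**
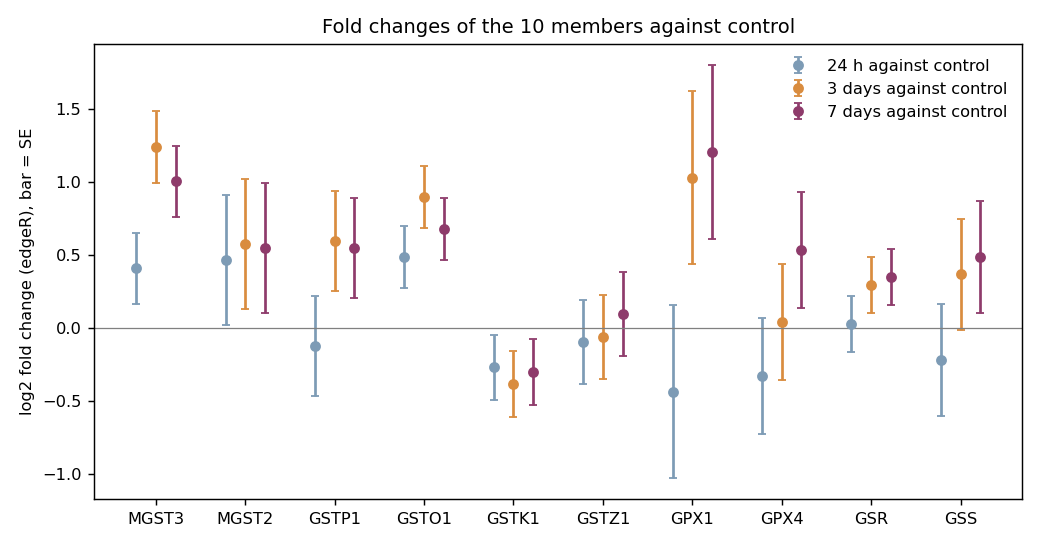
Fitted log2 fold change against control (vertical axis, bars are SE) of the 10 genes at 24 h, 3 days and 7 days, with 2 libraries in each group. MGST3 at 1.24 and GPX1 at 1.03 have the highest values at 3 days with SEs of 0.24 and 0.59, and GSTK1 lies below 0 at all 3 times.

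At 24 h of exposure against control, the 10 genes showed no shared direction: the fold change was positive for 4 (MGST2, MGST3, GSTO1 and GSR) and negative for 6. Of the 9 genes other than MGST3, both 24 h libraries lay above both controls for 1 (GSTO1), where 11.4% of all tested genes did. They lay below both controls for 5 (GSTP1, GSTK1, GSTZ1, GPX1 and GPX4), where 12.5% of all genes did. None of the 9 passed or had an unadjusted p under 0.05 (edgeR). GSTO1 lay close to that level, and its side of it depended on the setting. Its unadjusted p was 0.0515 here, 0.0476 in edgeR with a replicate block, 0.0475 in limma-voom and 0.0652 in DESeq2. Over all genes edgeR, DESeq2 and limma-voom each called 0 (0%), and edgeR's unadjusted p was under 0.05 for 0.175% of them. That low share comes from an unpaired test, although control and 24 h libraries formed close pairs across replicate numbers. With a block for these crossed pairs, added after seeing the data, 122 genes had an unadjusted p under 0.05 instead of 22. None passed there either, and the 0 calls do not show that nothing changed at 24 h.

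At 3 days against control, 7 of the 9 other genes had a positive fold change, with a median of 0.37 on the log2 scale against 0.01 over all tested genes. Without replicate 1 at 3 and 7 days, GPX1, GPX4 and GSS turned there, to -0.10, -0.80 and -0.20, and GSTP1 fell to 0.03. MGST2, GSTO1 and GSR stood at 0.36, 0.85 and 0.31 in that fit, and GSTK1 and GSTZ1 at -0.34 and -0.01. The groups did not overlap for 3 of the 9 with the 3 day libraries higher (GSTP1, GSTO1 and GSR), against 16.7% of all genes, and for 2 with them lower (GSTK1 and GSTZ1), against 17.2%. Only GSTO1 had an unadjusted p under 0.05, a level that 5.29% of all genes reached, and edgeR called none of the 9 and 0% of all genes (limma-voom 0, DESeq2 9). At 7 days 8 of the 9 had a positive fold change, with a median of 0.54 against 0.00 over all genes. There the groups did not overlap for 6 with the 7 day libraries higher (all but GSTK1, GSTZ1 and GSS), against 16.6% of all genes, and for 1, GSTK1, with them lower, against 17.9%. GSTO1 alone had an unadjusted p under 0.05, against 4.94% of all genes, and edgeR again called 0% (limma-voom 0, DESeq2 15).

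Between exposed times, the 7 day libraries lay above both 24 h libraries for 6 of the 9 (GSTP1, GSTO1, GPX1, GPX4, GSR and GSS), against 17.9% of all genes. GPX1 gave the highest log2 fold change of them, 1.64 ± 0.60 (edgeR, unadjusted p = 0.0259, adjusted p = 0.736), or 0.81 without replicate 1 at 3 and 7 days. GPX4 followed with 0.87 ± 0.40 (adjusted p = 0.736), or 0.69 without these libraries. No gene of the 10 and 0% of all genes passed in edgeR at 3 days against 24 h (764 unadjusted, DESeq2 19, limma-voom 0), nor at 7 against 3 days (31 unadjusted, DESeq2 and limma-voom 0). Those 31 are 0.247% of all genes, in an unpaired test of libraries that formed close pairs by replicate number. A replicate block over all groups gave 26 and called 0. The 0 calls do not show that 3 and 7 days are alike.

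Setting the 4 libraries of 3 and 7 days against the 4 of control and 24 h pools the groups, although the later libraries of 1 replicate number resembled each other more than their own group. GSTO1 had a log2 fold change of 0.55 ± 0.15 (edgeR, unadjusted p = 0.00683, adjusted p = 0.256), GPX1 1.34 ± 0.42 (unadjusted p = 0.0132, adjusted p = 0.275) and GSTP1 0.64 ± 0.24 (unadjusted p = 0.0299, adjusted p = 0.318). These 3 of the 9 had an unadjusted p under 0.05, where 14.2% of all genes did. MGST3, whose choice used part of these libraries, had 0.92 ± 0.17. The integrin gene ITGA1 was the single gene called (0.00798% of those tested), and it is no member. In DESeq2, which called 277 genes, GPX1 passed here (adjusted p = 0.0336), as it did in edgeR without the count filter, which called 489 (adjusted p = 0.0051). MGST3 was also among the calls of both, for which its choice leaves no test, and limma-voom called 1 gene. Without replicate 1 at 3 and 7 days the values were 0.90 for MGST3, 0.47 for GSTO1, 0.35 for GPX1 and 0.19 for GSTP1.

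Short transcripts were favoured at the later times over the whole transcriptome, in group fold changes that pool both replicates. The trend was not taken by library, and replicate 1 at these times also had the high ribosomal protein median. In the 10% of tested genes with the shortest transcripts, up to 1306 bases, the median log2 fold change was 0.25 at 3 days and 0.19 at 7 days, against -0.16 and -0.12 in the 10% with the longest. By the 1 reference transcript taken for each gene, 7 of the 10 genes fall in that shortest class (961 to 1278 bases). The reference transcripts of GSS, GSR and GSTZ1 are longer (2702, 3192 and 5356 bases). Which transcript of a gene these cells used was not tested. With the trend on transcript length and GC content removed, which gives values with no test, MGST3 stood at a log2 fold change of 1.01 at 3 days (1.24 before removal) and 0.83 at 7 days (1.01 before). At 3 days GSTO1 stood at 0.69 (0.90 before), GPX1 at 0.84 (1.03 before), GSTP1 at 0.38 (0.60 before) and MGST2 at 0.38 (0.57 before). GPX4 turned to -0.15 at 3 days (0.05 before), and GSTK1 lay further below 0, at -0.61 (-0.38 before). At 7 days against 24 h MGST3 stood at 0.38 (0.60 before).

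**Figure D4:**
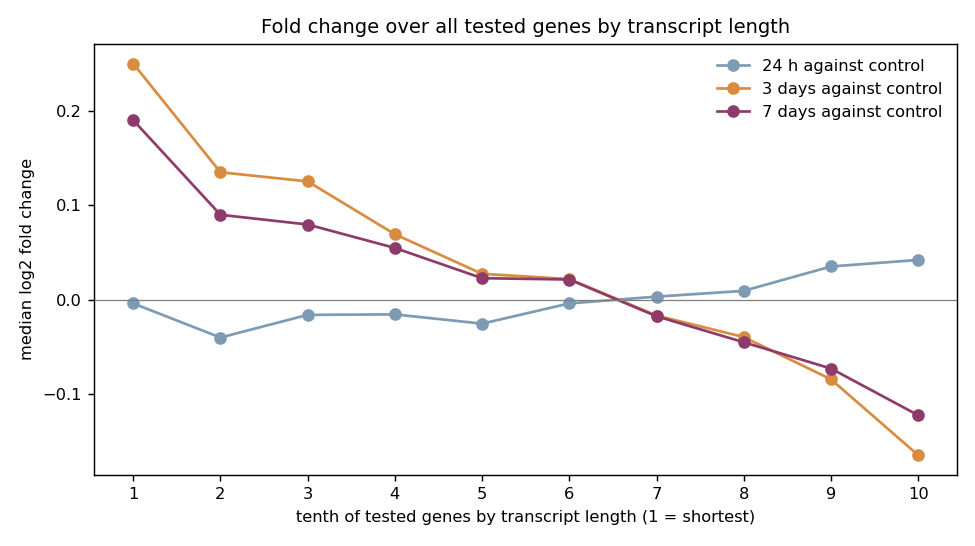
Median log2 fold change against control (vertical axis) of all tested genes in 10 classes of rising transcript length (horizontal axis), for 24 h, 3 days and 7 days. The line for 3 days runs from 0.25 in the shortest class to -0.16 in the longest, and 7 of the 10 genes fall into the shortest class.

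The genes whose log2 CPM over the 8 libraries was most like that of MGST3, among 9575 genes with a mean of at least 5 CPM, were FAM53B (Pearson r = 0.987), RP2 (0.986), AP3S1 (0.973), AK4 (0.973) and KDELR1 (0.970). RP2 averaged 20.7 CPM before exposure and 25.4 after 24 h, then 38.1 on day 3 and 33.2 on day 7, which ranks the groups as MGST3 does. The most opposite were ZC3H14 (r = -0.979), RIC3 (-0.972), USP18 (-0.962), NUB1 (-0.960) and ARHGEF12 (-0.952). Among the 10 genes, GSTO1 (r = 0.942) and GSR (0.887) were most like MGST3, and GSTK1 was the one with a negative r (-0.708). These correlations describe 8 libraries that fall into 4 close pairs.

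The rest of the pathway was read from 10 lists of 114 further genes, of which 88 were tested and none passed in edgeR in any of the 7 comparisons. At 3 days against control 5 of the 88 had an unadjusted p under 0.05, all with a positive fold change, and at 7 days 4 had a positive and 1 a negative one. These shares are near those over all tested genes, 5.29% and 4.94%. The counts and medians given by list pool both replicates, and none was taken without replicate 1 at 3 and 7 days. Among the genes that supply or make glutathione, 6 of 10 had a positive fold change at 3 days (median 0.06) and at 7 days (0.09). In this list the amino acid carrier SLC1A5 stood at 60.2 ± 2.83 CPM at 3 days against 40.8 ± 6.95 in control (SD, n = 2 each; edgeR, adjusted p = 0.843). The cystine carrier subunit SLC3A2 stood at 127 and 61.0 CPM in replicates 1 and 2 at 3 days against 53.6 and 63.0 in control, so that its log2 fold change of 0.69 ± 0.43 rests on replicate 1 (edgeR, adjusted p = 0.843). For glutathione breakdown and recycling the share was 4 of 7 at 3 days (median 0.03) and 3 of 7 at 7 days (-0.04), and GGCT, which acts on gamma-glutamyl dipeptides, had a log2 fold change of 0.48 ± 0.34 at 3 days. It too rests on replicate 1, with 43.0 and 23.9 CPM in replicates 1 and 2 at 3 days against 24.2 and 23.5 in control.

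Other transferases and MAPEG proteins had a positive fold change in 7 of 8 at 3 days (median 0.20) and in 5 of 8 at 7 days (0.21). ALOX5AP, the MAPEG protein that hands arachidonic acid to 5-lipoxygenase, stood at 9.37 CPM at 3 days and 10.7 at 7 days against 5.61 in control (log2 fold change 0.74 ± 0.32 and 0.93 ± 0.32; edgeR, adjusted p = 0.843 and 0.851). CLIC1, a chloride channel protein with a glutathione transferase fold, was at 249 and 141 CPM in replicates 1 and 2 at 3 days, against 110 and 97.7 in control. The leukotriene list, which shares ALOX5AP, had 5 of 7 at both times (medians 0.19 and 0.31), with the leukotriene A4 hydrolase gene LTA4H at 0.45 ± 0.21 at 3 days. GPX7, the 1 tested gene of 6 other peroxidases, had 0.15 ± 0.31 at 3 days.

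Glutaredoxins and other glutathione-dependent enzymes had a positive fold change in 9 of 12 at 3 days (median 0.24) and in 10 of 12 at 7 days (0.25). Of those positive at 3 days, TXNDC12, PRDX6, ESD and GLO1 lay above both controls in both replicates. In replicate 2, GLRX2 and GLRX5 lay between the controls, and GLRX3, ADH5 and ETHE1 (111, 144 and 21.1 CPM) below both. All of these but TXNDC12, PRDX6 and ESD were named after their values were seen. TXNDC12, a thioredoxin-fold protein of the endoplasmic reticulum, stood at 119.8 and 95.8 CPM at 3 days and 104 and 84.1 at 7 days against 62.3 and 53.2 in control, with a log2 fold change of 0.90 ± 0.22 and 0.70 ± 0.22 (edgeR, unadjusted p = 0.00384 and 0.0137, adjusted p = 0.843 and 0.851). PRDX6, a peroxiredoxin that uses glutathione, had 0.55 ± 0.26 at 3 days. NADPH supply was evenly divided, with 7 of 14 at 3 days (median 0.00) and 8 of 14 at 7 days (0.04). Within it IDH2, the mitochondrial NADP-dependent isocitrate dehydrogenase, stood at 101 and 109 CPM at 7 days against 56.0 and 62.4 in control (0.83 ± 0.21; edgeR, unadjusted p = 0.00453, adjusted p = 0.851). The malic enzyme gene ME1 had -0.77 ± 0.45 at 7 days (edgeR, adjusted p = 0.851). Its groups overlapped, with 7.84 and 14.2 CPM at 7 days against 12.5 and 25.2 in control.

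Carriers of glutathione and its conjugates had a positive fold change in 4 of 10 at 3 days (median -0.14) and in 3 of 10 at 7 days (-0.29). ABCC5, an export pump, stood at 17.2 and 14.7 CPM at 7 days against 25.7 and 24.0 in control (log2 fold change -0.64 ± 0.24; edgeR, adjusted p = 0.851). Selenoprotein synthesis, on which GPX1 and GPX4 depend, had 4 of 8 at 3 days (median 0.08) and 3 of 8 at 7 days (-0.06), with SEPHS2, a selenophosphate synthetase, at 0.57 ± 0.44 at 7 days. The SEPHS2 groups overlapped, with 282 and 168 CPM in replicates 1 and 2 at 7 days against 196 and 106 in control. Genes around GPX4 in ferroptosis had 11 of 14 at 3 days (median 0.28) and 9 of 14 at 7 days (0.26). In that list the heme oxygenase gene HMOX1 had 108 and 124 reads in replicate 1 at 3 and 7 days and 33 and 24 in replicate 2, against 33 and 21 before exposure. The ferritin gene FTL showed the same split, at 2150 and 791 CPM in the 3 day libraries against 772 and 659 in control. VDAC2 did too, at 586 and 209 CPM in the 3 day libraries against 284 and 247 in control. The count and median of this list pool both replicates.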

How the data were processed

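RNA-seq read counts of 8 libraries (4 groups of 2) were analysed. The authors deposited 1 unpooled table of raw counts by gene symbol for each library. Per the submitters' processing notes, Trim Galore, Bowtie2, SAMtools, DESeq2 1.8.1, R 3.2.3 and the builds GRCh37 and hg19 were used. Neither the counting tool nor its strand setting nor the annotation is named there. Without a known strand setting, reads of overlapping genes cannot be told apart. The 5 summary entries naming no gene (42.6% to 57.5% of reads) were left out.

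The edgeR 4.0.16 filter filterByExpr (minimum count 10, total 15) left 12536 genes. After TMM scaling, 1 quasi-likelihood model with a term for each of the 4 groups covered the 8 libraries. Benjamini-Hochberg adjustment ran over all genes tested in each comparison, with a threshold of 0.05. SEs come from the F statistic. Log2 CPM used a prior count of 2. Transcript lengths and GC content are of the longest principal (otherwise longest) transcript in GENCODE 29 (GRCh38), found for 97.2% of tested genes.

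Members and lists were chosen with earlier results of these data known. Genes eligible to be named were all 10 members, the 3 per list with the smallest p against control, and the 5 genes most and least like MGST3. From these, examples are printed, and genes named after their values were seen are marked as such. Alternatives were RLE, upper-quartile and total-count scaling, DESeq2 1.42.0, limma-voom (limma 3.58.1), no filter or 50 counts in 2 libraries, robust fitting, only the groups compared, a replicate block, a length and GC trend, and each library left out. Precision is limited by 2 libraries a group and, for MGST2 and GSTZ1, by at most 79 reads a library.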

Additional observations from a re-analysis of the deposited data

Results flagged for a closer look

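For 3 of the 10 genes the later libraries lay on the opposite side of the control libraries from the 24 h libraries. The share of all tested genes that did so was not taken, so whether 3 of 10 is unusual cannot be said. GSTP1 was below both controls in both 24 h libraries and above both in the 3 day and 7 day libraries, with a log2 difference of 0.73 between 3 days and 24 h and of 0.67 between 7 days and 24 h (edgeR, adjusted p = 0.757 and 0.736). GPX1 showed this at 7 days, with a log2 difference of 1.64 to 24 h (edgeR, adjusted p = 0.736). GPX4 did so at 7 days with 0.87 (edgeR, adjusted p = 0.736). Without replicate 1 at 3 and 7 days, the difference to 24 h was 0.15 for GSTP1 at 3 days, and at 7 days 0.35 for GSTP1, 0.81 for GPX1 and 0.69 for GPX4. The tests of these differences did not pass. At 3 days GSTP1 in replicate 2 lay only just above the higher control, at 55.14 against 55.07 CPM.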

How the results depend on the processing

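Of 950 refitted tests of 50 fold changes (10 genes, 5 comparisons, 20 alternatives), 921 kept their direction and side of the threshold, 4 passed it and 25 turned direction. The crossed block was run for 24 h against control alone, and the fit of only the groups compared not for the pooled contrast of 3 and 7 days with control and 24 h. Removing the length and GC trend gave 50 values with no test, of which 44 moved by less than 1 SE, 4 by more and 2 turned. The 4 were GSTK1 at 3 days against control (-0.61) and MGST3, GSTO1 and GSTK1 in the pooled contrast. The pooled values were 0.70 (from 0.92), 0.37 (from 0.55) and -0.43 (from -0.21). The number of the 10 genes called was 0 in 124 of 126 refits; it was 2 for the pooled contrast without the count filter and in DESeq2. No filter called 11, 16, 21, 25 and 489 genes in all at 3 days against control, 7 days against control, 3 days against 24 h, 7 days against 24 h and in that pooled contrast, and DESeq2 called 9, 15, 19, 22 and 277. The pooled call of 1 gene was 0 without any single library and without replicate 1 at 3 and 7 days, an alternative chosen after seeing the data. GPX4 at 3 days against control turned to -0.039 with the replicate block, -0.075 with total-count scaling, -0.11 in limma-voom and -0.15 with the length and GC trend removed. Total-count scaling also turned GSTZ1 at 7 days against control (-0.014) and in the pooled contrast (-0.035), and MGST2 at 7 days against 24 h (-0.035, or -0.094 with the trend removed). Leaving out 1 library each, the fold change against control ranged from -0.082 to 0.96 for MGST2, -0.070 to 0.12 for GSR and -0.44 to 0.045 for GSS at 24 h. It ranged from -0.11 to 1.66 for GPX1, -0.81 to 0.58 for GPX4 and -0.21 to 0.78 for GSS at 3 days, and from -0.05 to 0.24 for GSTZ1 at 7 days. At 7 days against 24 h it ranged from -0.31 to 0.63 for MGST2 and -0.27 to 0.18 for GSTK1, and in the pooled contrast from -0.0076 to 0.14 for GSTZ1. Without replicate 1 at both later times, GPX1 (-0.10), GPX4 (-0.80) and GSS (-0.20) turned at 3 days, MGST2 (-0.074) and GSTK1 (0.18) at 7 days against 24 h, and GPX4 (-0.058) in the pooled contrast. The causes were not tested. Same-numbered libraries, as deviations from their own group mean (log2 CPM, all tested genes), correlated from -0.599 (24 h and control) to 0.811 (7 and 3 days). The numbers are therefore not taken as pairs. The replicate block called 0 genes, or 1 in the pooled contrast, and a crossed block, added after seeing the data, called 0 at 24 h.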
